A study of Mus musculus with 4 samples.

Results

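Cytokine receptors that signal through Janus kinases switch on genes whose products shut the same receptors off again, and 6 such feedback inhibitors were followed here in single cells of mouse islets. They are *Socs1*, *Socs2*, *Socs3* and *Cish* of the suppressor of cytokine signaling (SOCS) family, the tyrosine phosphatase gene *Ptpn2*, and *Usp18*, which encodes a protease for the ubiquitin-like protein ISG15. They were taken by symbol, and each matched 1 of the 31053 genes in the count tables. Islets of adult male C57BL/6 mice, given as C57BL6/J in the study, were pooled and then divided. They were left untreated or were exposed ex vivo to interleukin 1β (IL-1β), interferon-γ (IFN-γ) or both, each for 6 h. The islets were then dispersed and sequenced by droplet-based single-cell RNA-seq, which tags transcripts with a barcode for the droplet and with unique molecular identifiers (UMIs), so that molecules and not copies are counted. Each of the 4 conditions gave 1 library, so that no difference between conditions has a replicate check, no test was run, and every interval below is a 95% interval that covers counting error only.

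SOCS proteins bind phosphorylated tyrosines through an SH2 domain and, through the SOCS box, bring in elongins B and C and cullin 5, which mark the bound receptor or kinase for degradation. SOCS1 and SOCS3 also block Janus kinases directly, SOCS1 being the main brake on the IFN-γ receptor and SOCS3 on receptors that share gp130, whereas CISH and SOCS2 are best known for restraining receptors that act through STAT5, such as those of growth hormone and prolactin. PTPN2, the product of a candidate gene for type 1 diabetes, removes phosphate from Janus kinases and STAT proteins, and USP18 dampens the type I interferon receptor in addition to cleaving ISG15 from its targets.

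The analysis kept barcodes with between 200 and 4000 genes detected and no more than 12% of UMIs from mitochondrial genes. The untreated library kept 1521 cells, the IL-1β library 2018, the IFN-γ library 2122 and the combined library 1810. The median depth of these cells was 15454, 7462.5, 9615 and 11123.5 UMIs in the same order. The upper gene limit alone removed 843 untreated cells but only 146, 345 and 222 of the treated libraries, in the same order. Pairs of libraries shared 1 to 4 cell barcodes. A cell was called a β-cell, α-cell, δ-cell or PP-cell when insulin, glucagon, somatostatin or pancreatic polypeptide transcripts made up at least 2% of its UMIs and at least 80% of its hormone UMIs. This gave 1200 β-cells without treatment, 1200 after IL-1β, 1327 after IFN-γ and 1295 after both, or 67.2% of all kept cells. There were 89, 326, 281 and 159 α-cells and 64, 160, 186 and 107 δ-cells. The labels held against genes that the rule did not use. *Mafa* stood at 339.5 CPM (UMIs of a gene over all UMIs of the pooled cells, scaled to 1000000) in β-cells and at 2.08 in α-cells, *Irx1* at 136 CPM in α-cells and 0.347 in β-cells, and *Hhex* at 187 CPM in δ-cells and 0.446 in β-cells. Non-endocrine cells were named from the number of markers detected and were few, with 130 endothelial-like, 138 macrophage-like, 75 mesenchymal-like and 65 ductal-like cells over all libraries. *Ins2* in macrophage-like cells came to between 0.371% and 1.19% of its level in β-cells of the same library, and in endothelial-like cells to between 0.310% and 1.36%. These types were named only among cells with a leading hormone under 2% of UMIs. The values are therefore bounded by the rule and do not measure free hormone RNA.

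All 6 genes are protein-coding (GRCm38, GENCODE M21). *Socs1* occupies chr16:10782240-10785536, *Socs2* chr10:95385362-95417180 and *Socs3* chr11:117966079-117970047, all on the minus strand. *Cish* lies at chr9:107296026-107302784 and *Usp18* at chr6:121245906-121270917, both on the plus strand. *Cish* and *Usp18* overlap annotated genes on the opposite strand, *Gm17041* and *Gm44148*, and no source used here says whether the counting used strand.

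Promoter sequence is shown for the genes whose window in RefSeq (250 bases before to 50 after the start, build GRCm38.p6) was given, which are 3 of the 6. The windows were searched on both strands for TTCNNNGAA, the shape of a STAT binding element (GAS), and for a spaced pair of GAAA repeats, the core of an interferon-stimulated response element. Of 32851 promoter windows, 8.30% held the first and 3.44% the second. A match describes the letters and does not show binding. Capitals mark the matches. The *Socs1* stretch, chr16:10785564-10785659 on the minus strand, holds 2 overlapping matches to the response element, from -83 to -68 relative to the start, and no TTCNNNGAA was in its window. The *Socs3* stretch, chr11:117969472-117969560 on the minus strand, holds a TTCNNNGAA at -154 to -146. In the *Cish* site, chr9:107296654-107296678 on the plus strand, a pair of TTCNNNGAA matches lies at bases 1 to 9 and 12 to 20 of the transcript. Positions count from the RefSeq start. The GENCODE genes begin further upstream for *Socs3* and *Cish*, so that both stretches lie within the annotated gene. The *Cish* site overlaps an annotated untranslated region and the *Socs3* stretch does not.
Socs1: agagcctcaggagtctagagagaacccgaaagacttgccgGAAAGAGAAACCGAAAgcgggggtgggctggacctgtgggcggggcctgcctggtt
Socs3: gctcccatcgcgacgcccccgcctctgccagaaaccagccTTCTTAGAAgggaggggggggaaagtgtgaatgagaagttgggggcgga
Cish: cagttTTCCTGGAAagTTCTTGGAA

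In β-cells the 6 inhibitors differed in which single cytokine gave the higher level. For *Socs1* and *Usp18* this was IFN-γ, although *Socs1* was also above untreated with IL-1β, and for *Socs3* and *Ptpn2* it was IL-1β. *Cish* was highest when both cytokines were present, and *Socs2* was lower in the treated libraries, though with IFN-γ not after thinning. After both cytokines, 5 of the 6 were at least 2-fold higher than in untreated β-cells and *Socs2* was at least 2-fold lower, at a ratio of 0.486, which was 0.636 when every cell was thinned to 4000 UMIs. Among all 8983 genes with a mean of at least 5 CPM over the libraries compared, 10.9% were at least 2-fold higher and 7.38% at least 2-fold lower. *Socs1* and *Cish*, at 0.698 and 4.39 CPM untreated, passed this minimum only through the treated library. The rule was the same for all genes. The median ratio was 7.24 over the 6 inhibitors and 1.06 over all genes. With IL-1β alone, 3 of the 5 inhibitors that passed this minimum were at least 2-fold higher (*Socs3*, *Cish* and *Ptpn2*) against 16.8% of 9207 genes, with a median ratio of 2.31 against 1.33. Here too *Cish* passed only through the treated library. With IFN-γ alone, 2 of 5 were (*Socs1* and *Usp18*) against 4.17% of 9191 genes, with a median of 1.89 against 1.25. *Socs1* again passed only through the treated library, and *Cish*, under the minimum in both libraries, was not counted. The medians over all genes stand 0.406 above 0 on the log2 scale with IL-1β and 0.324 with IFN-γ. Insulin transcripts took a median of 41.1% of the UMIs of an untreated β-cell, 20.4% after IL-1β, 27.1% after IFN-γ and 31.6% after both, and their part in these shifts was tested only by leaving the hormone genes out of the totals. Some ratios are therefore also given divided by the median of all genes in the same comparison.

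**Figure D1:**
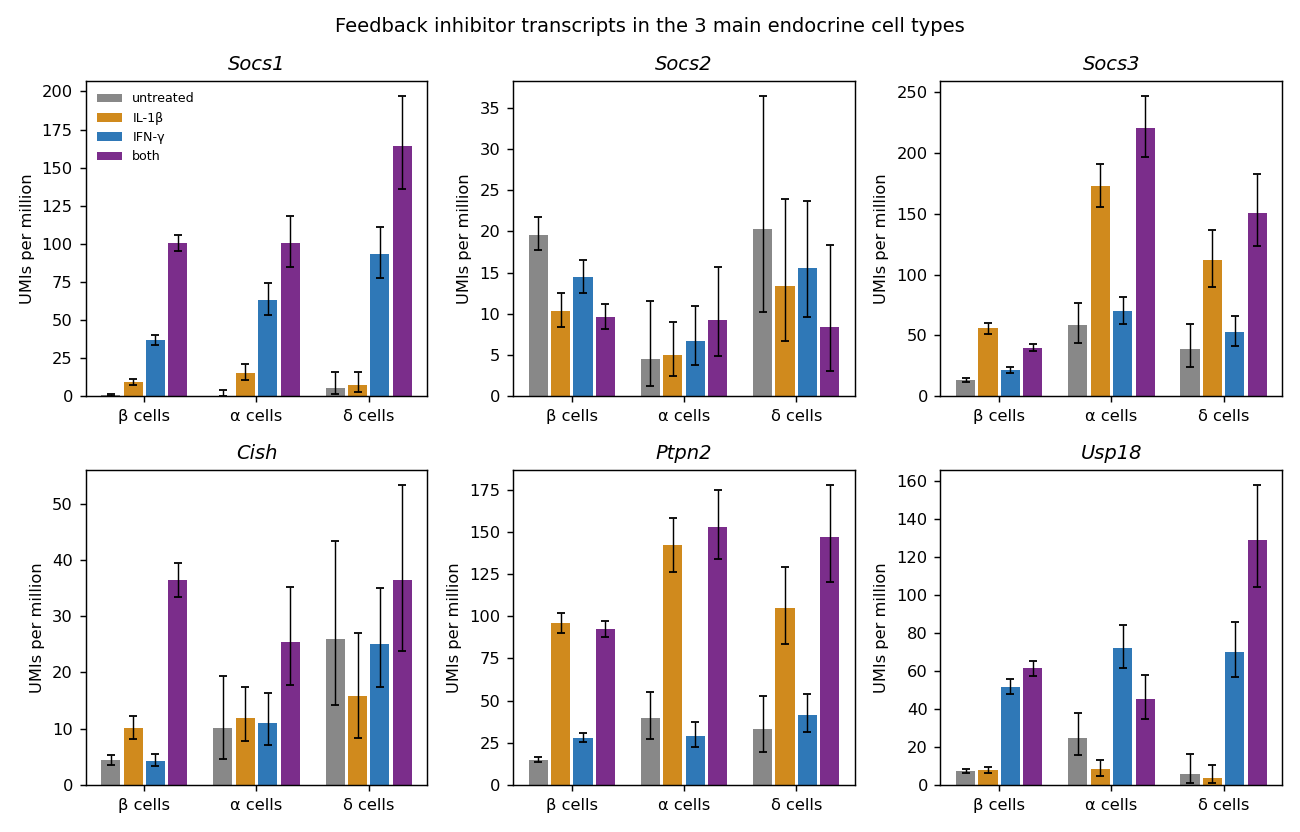
Bars show the CPM (linear axis from 0) of each gene in the pooled β-, α- and δ-cells, one bar per library, and error bars the exact Poisson 95% interval of the UMI count. *Socs1* is highest with both cytokines in each type, *Socs3* and *Ptpn2* are high wherever IL-1β was present, and *Usp18* is highest in a library with IFN-γ in each type.

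*Socs1*, the inhibitor of the IFN-γ receptor and its kinases, was nearly absent from untreated β-cells, with 14 UMIs in 1200 cells, or 0.698 CPM (0.381 to 1.17). It stood at 9.03 CPM (7.28 to 11.1) after IL-1β, 36.9 (33.9 to 40.2) after IFN-γ and 100.5 (95.6 to 106) after both. All 4 intervals were apart, in that order. The ratio to untreated was 52.9 (31.3 to 97.5) after IFN-γ and 144 (85.6 to 264) after both. With IL-1β alone it was 12.9 (7.34 to 24.6), although the mean of those 2 libraries fell just below 5 CPM. The combined library held 2.72 times (2.47 to 3.01) the level with IFN-γ and 11.1 times (9.01 to 13.9) the level with IL-1β. More cells carried the transcript as well. When every cell was thinned to 4000 UMIs, *Socs1* was detected in 0.262% of untreated β-cells (0.0540 to 0.762), 2.86% after IL-1β, 12.7% after IFN-γ and 25.1% (22.7 to 27.6) after both. Without thinning these shares were 1.17%, 5.42%, 27.4% and 49.0%.

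*Usp18* had a different profile, with a step at IFN-γ and a smaller one beyond it. Its level in β-cells was 7.33 CPM (6.19 to 8.61) untreated, 7.66 (6.05 to 9.56) after IL-1β, 51.8 (48.1 to 55.6) after IFN-γ and 61.3 (57.5 to 65.2) after both. The untreated and IL-1β intervals overlapped, with a ratio of 1.05 (0.784 to 1.38), and the ratio of the combined to the IFN-γ library was 1.18 (1.07 to 1.30), or 1.41 when divided by the median of all genes. Against untreated cells the ratio was 7.07 (5.91 to 8.49) after IFN-γ and 8.36 (7.03 to 10.0) after both. With IL-1β alone, the ratio divided by the median of all genes was 0.789.

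*Ptpn2* and *Socs3* were higher in β-cells after IL-1β than after IFN-γ. *Ptpn2*, which lies at chr18:67665511-67724595 on the minus strand, stood at 14.9 CPM (13.3 to 16.7) untreated, 96.0 (90.1 to 102) after IL-1β, 28.1 (25.4 to 31.0) after IFN-γ and 92.3 (87.6 to 97.1) after both. IFN-γ added to IL-1β left it at 0.961 (0.886 to 1.04) of its IL-1β level, an interval that includes 1, and at 1.20 of it when divided by the median of all genes. Its ratio to untreated was 6.44 (5.65 to 7.36) with IL-1β and 1.89 (1.62 to 2.20) with IFN-γ, or 4.86 and 1.51 when divided by the medians of all genes. After thinning the IFN-γ ratio was 2.14, past 2-fold. It was detected in 5.49% of thinned untreated β-cells, in 30.1% after IL-1β, where it was the most widely detected of the 6, and in 27.4% (25.0 to 30.0) after both, where its interval overlapped that of *Socs1*.

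*Socs3*, the inhibitor of gp130 receptors, was at 13.2 CPM (11.7 to 14.9) in untreated β-cells, 55.9 (51.4 to 60.6) after IL-1β, 21.3 (19.0 to 23.8) after IFN-γ and 40.0 (36.9 to 43.2) after both. Here the combined library was below IL-1β alone, with a ratio of 0.715 (0.638 to 0.803). Divided by the median of all genes in that comparison, this ratio was 0.896. Its ratio to untreated was 4.23 (3.65 to 4.91) after IL-1β, 1.61 (1.36 to 1.91) after IFN-γ and 3.03 (2.62 to 3.51) after both.

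*Cish*, like *Socs1*, had a level with both cytokines at least 2-fold above that with either alone. It was at 4.39 CPM (3.52 to 5.40) in untreated β-cells, 10.1 (8.25 to 12.3) after IL-1β, 4.30 (3.30 to 5.52) after IFN-γ and 36.4 (33.5 to 39.5) after both. The combined library was 8.30 times (6.62 to 10.5) the untreated one, 3.60 times (2.91 to 4.48) the IL-1β library and 8.46 times (6.50 to 11.2) the IFN-γ library. The untreated and IFN-γ levels overlapped, with a ratio of 0.981 (0.697 to 1.37). With IL-1β alone the ratio was 2.31 (1.72 to 3.10), which became 1.74 when divided by the median of all genes and 1.70 when the hormone genes were left out of the totals. Thinned β-cells with a *Cish* UMI made up 1.57% untreated, 3.31% after IL-1β, 1.43% after IFN-γ and 13.5% (11.7 to 15.6) after both.

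*Socs2*, which restrains growth hormone signaling, went the other way. Its level in β-cells was 19.6 CPM (17.7 to 21.7) untreated, 10.3 (8.43 to 12.5) after IL-1β, 14.4 (12.5 to 16.5) after IFN-γ and 9.55 (8.09 to 11.2) after both. The ratios to untreated were 0.525 (0.419 to 0.653), 0.735 (0.618 to 0.872) and 0.486 (0.401 to 0.588). Divided by the median of all genes, the first was 0.396, past 2-fold. After thinning they were 0.693 with IL-1β and 0.636 with both, neither past 2-fold, and with IFN-γ the level was equal to the untreated one at 3 digits. The IL-1β and combined levels overlapped, and untreated cells were above all others. In thinned cells the shares with a UMI were 6.54% (5.18 to 8.13) untreated, 4.38% (3.26 to 5.75) after IL-1β, 6.61% (5.30 to 8.13) after IFN-γ and 4.04% (3.02 to 5.28) after both, so that the untreated and IFN-γ shares could not be told apart at this depth.

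Comparing the combined library with each single cytokine, 3 of the 6 inhibitors were at least 2-fold above IL-1β (*Socs1*, *Cish* and *Usp18*) against 2.24% of 9070 genes. The same number was at least 2-fold above IFN-γ alone (*Socs1*, *Cish* and *Ptpn2*) against 4.98% of 9209 genes. *Socs3* stood at 1.88 times IFN-γ alone, or 2.24 when divided by the median of all genes. *Socs1* and *Cish* were thus 2-fold or more above both single cytokines. These comparisons share the combined library.

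In α-cells and δ-cells *Socs1* was again highest with both cytokines and *Socs3* and *Ptpn2* were high wherever IL-1β was present, whereas the IFN-γ and combined levels of *Usp18* stood in a different order in α-cells. With IL-1β, 3 of 5 inhibitors that passed the minimum were at least 2-fold higher in α-cells (*Socs1*, *Socs3* and *Ptpn2*) against 8.94% of 9642 genes, and *Usp18* was at least 2-fold lower against 11.0%. With IFN-γ, 2 of 6 were higher in α-cells (*Socs1* and *Usp18*) against 6.50% of 9799 genes, and with both 5 of 6 were against 10.1% of 9592 genes, a count that ran from 4 to 6 over the alternatives. The median ratios over the inhibitors in α-cells, with *Socs1* at its lower bound, were 2.94, 1.33 and 3.13, and those over all genes 0.947, 1.06 and 0.878. *Socs1* in α-cells passed the minimum only through the treated libraries, as did *Socs2* (4.52 CPM untreated) with IFN-γ and with both. In δ-cells 2 of 5 were at least 2-fold higher with IL-1β (*Socs3* and *Ptpn2*) against 11.0% of 9967 genes, and 2 of 6 with IFN-γ (*Socs1* and *Usp18*) against 5.78% of 9980. With both, 4 of 6 δ-cell inhibitors were (*Socs1*, *Socs3*, *Ptpn2* and *Usp18*) against 12.4% of 9895 genes. Further δ-cell ratios passed 2-fold under alternatives. *Socs1* with IL-1β was at 3.33 with the first limits on hormones (5% of UMIs and 70% of hormone UMIs). *Cish* after thinning was at 2.19, 3.34 and 3.45 with IL-1β, IFN-γ and both. Levels of the 4 heat shock genes also differed between the libraries. In δ-cells 3, 3 and 4 of them were at least 2-fold higher with IL-1β, IFN-γ and both, *Hspa1a* being at 1.85 CPM (1 UMI) untreated and 248, 287 and 1312 treated. The treated levels came from 25 of 160, 13 of 186 and 70 of 107 δ-cells. In α-cells 1, 0 and 3 of the genes were higher, with *Hspa1a* at 84.8, 170.3, 90.1 and 722 CPM. These came from 6 of 89, 45 of 326, 21 of 281 and 102 of 159 α-cells. With the cells of high *Hspa1a* left out, the inhibitors counted as higher were 2, 2 and 4 in δ-cells, as before, and 3, 2 and 4 in α-cells, where *Socs2* fell to 1.97 with both. *Usp18* in α-cells with both was then at 1.39 times untreated. *Socs2* was at least 2-fold lower in δ-cells with both, from 11 UMIs untreated and 6 treated, beside 22.8% of genes, and its interval of 0.126 to 1.22 included 1. The δ-cell median ratios over the inhibitors were 1.31, 1.30 and 4.16, and those over all genes 0.986, 0.959 and 0.846.

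*Socs1* had no UMI in 89 untreated α-cells, which allows up to 3.39 CPM at a floor of 3 UMIs. It stood at 15.1 CPM (10.4 to 21.2) after IL-1β, 63.0 (53.1 to 74.3) after IFN-γ and 100.4 (84.6 to 118) after both, or at least 4.44-fold, 18.6-fold and 29.6-fold higher. In δ-cells it stood at 5.55 CPM (3 UMIs), 7.29 (2.68 to 15.9), 93.1 (77.5 to 111) and 164 (136 to 197). Its level with both cytokines was thus alike in β- and α-cells and higher in δ-cells, where the interval lies above both. The δ-cell ratios of *Socs1* to untreated varied with the settings. With IL-1β the ratio was 1.31, but 3.33 with the first limits on hormones and 0.488 after thinning. With IFN-γ it was 16.8, and 31.9 with a leading hormone of at least 90%. With both it was 29.6, and 65.4 with the first limits.

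*Socs3* started from a higher level in the other endocrine cells. In α-cells it was at 58.8 CPM (43.9 to 77.1) untreated, 173 (156 to 191) after IL-1β, 70.1 (59.6 to 81.9) after IFN-γ and 221 (197 to 247) after both, against 38.8, 112, 52.5 and 151 CPM in δ-cells. The ratio of the combined to the IL-1β library, 0.715 in β-cells, was 1.28 (1.10 to 1.49) in α-cells and 1.35 (1.02 to 1.81) in δ-cells. *Ptpn2* was at 39.6, 142, 29.3 and 153 CPM in α-cells and at 33.3, 105, 41.4 and 147 CPM in δ-cells. The ratio of *Ptpn2* to untreated with IL-1β was 6.44 (5.65 to 7.36) in β-cells, 3.58 (2.52 to 5.23) in α-cells and 3.14 (1.87 to 5.55) in δ-cells, or 4.86, 3.78 and 3.19 when divided by the median of all genes in each type, and no test of the difference between cell types was possible with 1 library per condition.

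*Usp18* in α-cells was at 24.9 CPM (15.6 to 37.6) untreated, from 22 UMIs, at 8.22 (4.87 to 13.0) after IL-1β, 72.3 (61.7 to 84.3) after IFN-γ and 45.3 (34.9 to 57.8) after both. The IL-1β library was below the untreated one, with a ratio of 0.331 (0.167 to 0.646), and the combined library was below IFN-γ alone and 1.82 times untreated, with overlapping intervals (2.07 when divided by the median of all genes). δ-Cells had the reverse order of the IFN-γ and combined libraries. *Usp18* stood there at 5.55 CPM (3 UMIs), 3.65 (3 UMIs), 70.2 (56.8 to 85.8) and 129 (104 to 158). The ratios to untreated of the last 2 were 12.7 and 23.3, and 4.63 and 8.52 without the upper gene limit. *Cish* in α-cells was at 10.2, 11.9, 11.1 and 25.5 CPM, the last 2.50 times untreated (1.18 to 5.91). In δ-cells it was at 25.9 (14.2 to 43.4), 15.8, 25.1 and 36.5 CPM (23.8 to 53.4), and all 4 intervals overlapped. After thinning, which left 1 untreated α-cell and 2 untreated δ-cells with a *Cish* UMI, the ratios to untreated were 4.10, 3.54 and 6.23 in α-cells and 2.19, 3.34 and 3.45 in δ-cells, so that the order of the δ-cell libraries is not settled at this depth. *Socs2* was scarce in α-cells, at 4.52 to 9.19 CPM from 4 to 15 UMIs, and its ratio of 2.03 with both cytokines had an interval from 0.628 to 8.56 and was below 2 without the upper gene limit and after thinning (1.82).

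**Figure D2:**
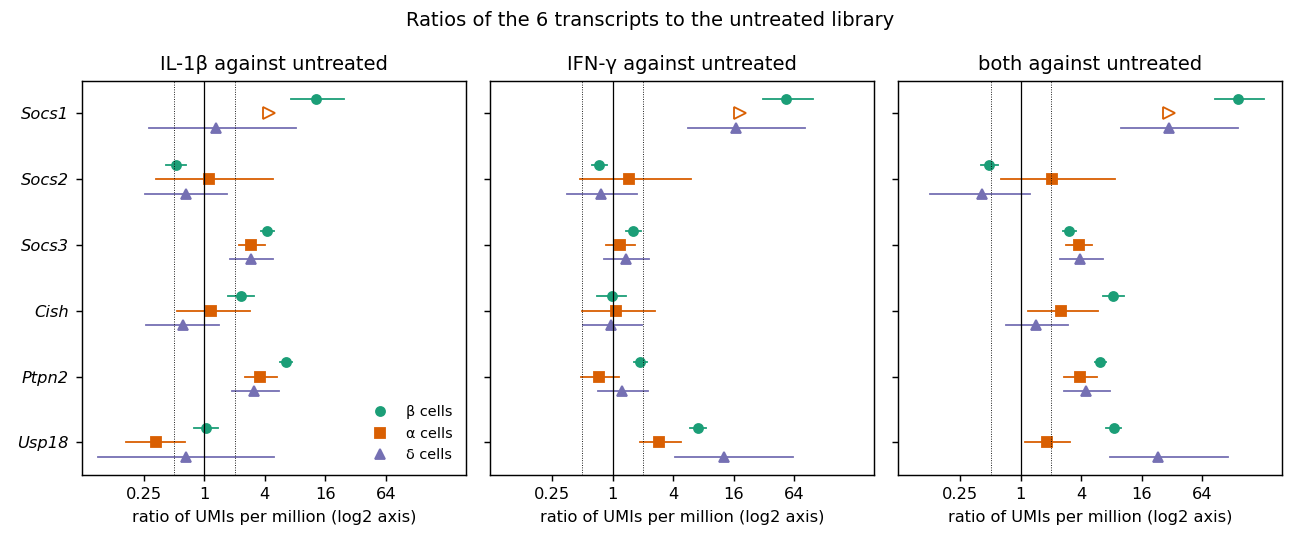
Points show the ratio of CPM in each treated library to the untreated library (log2 axis) in β-, α- and δ-cells, and lines the exact 95% interval from the UMI counts. Open triangles mark the lower bound for *Socs1* in α-cells, which had no UMI untreated, and dotted lines a ratio of 0.5 and of 2.

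Among all 8 cell types compared, *Socs1* was highest outside the endocrine cells. With both cytokines it stood at 656 CPM (563 to 761) in macrophage-like, 442 (314 to 604) in ductal-like, 440.1 (354 to 541) in endothelial-like and 379.9 (282 to 501) in mesenchymal-like cells, followed by δ-cells at 164 and PP-cells at 138. The intervals of ductal-, endothelial- and mesenchymal-like cells overlapped. With IFN-γ alone the non-endocrine levels were 321, 264, 369 and 387 CPM in the same order. With IL-1β they were 14.3 CPM (3 UMIs), 0, 7.31 and 19.4, so that each library with a high level had received IFN-γ. β-Cells nevertheless held 66.7% of the *Socs1* UMIs of the combined library while making up 71.5% of its cells.

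*Socs2* and *Cish* also varied between cell types. *Socs2* was highest in endothelial-like cells with both cytokines, at 166 CPM (115 to 232), and in ductal-like cells with IL-1β, at 160.1 (93.2 to 256), and lowest in PP-cells, with 0 or 1 UMI per library. In macrophage-like cells it was at 6.81 CPM untreated, 76.5 (43.7 to 124) with IL-1β from 16 UMIs in 37 cells, 9.01 after IFN-γ and 3.75 after both, so that IL-1β alone stood above the others. *Cish* was highest in ductal-like cells, at 69.9, 28.2, 71.2 and 136 CPM (70.2 to 237), and had 0 or 1 UMI in each library of macrophage-like cells. *Socs3* was highest in endothelial-like cells with both, at 367 CPM (288 to 459.7). In macrophage-like cells it went from 20.4 CPM (7.50 to 44.5) untreated to 196, 153 and 195.

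**Figure D3:**
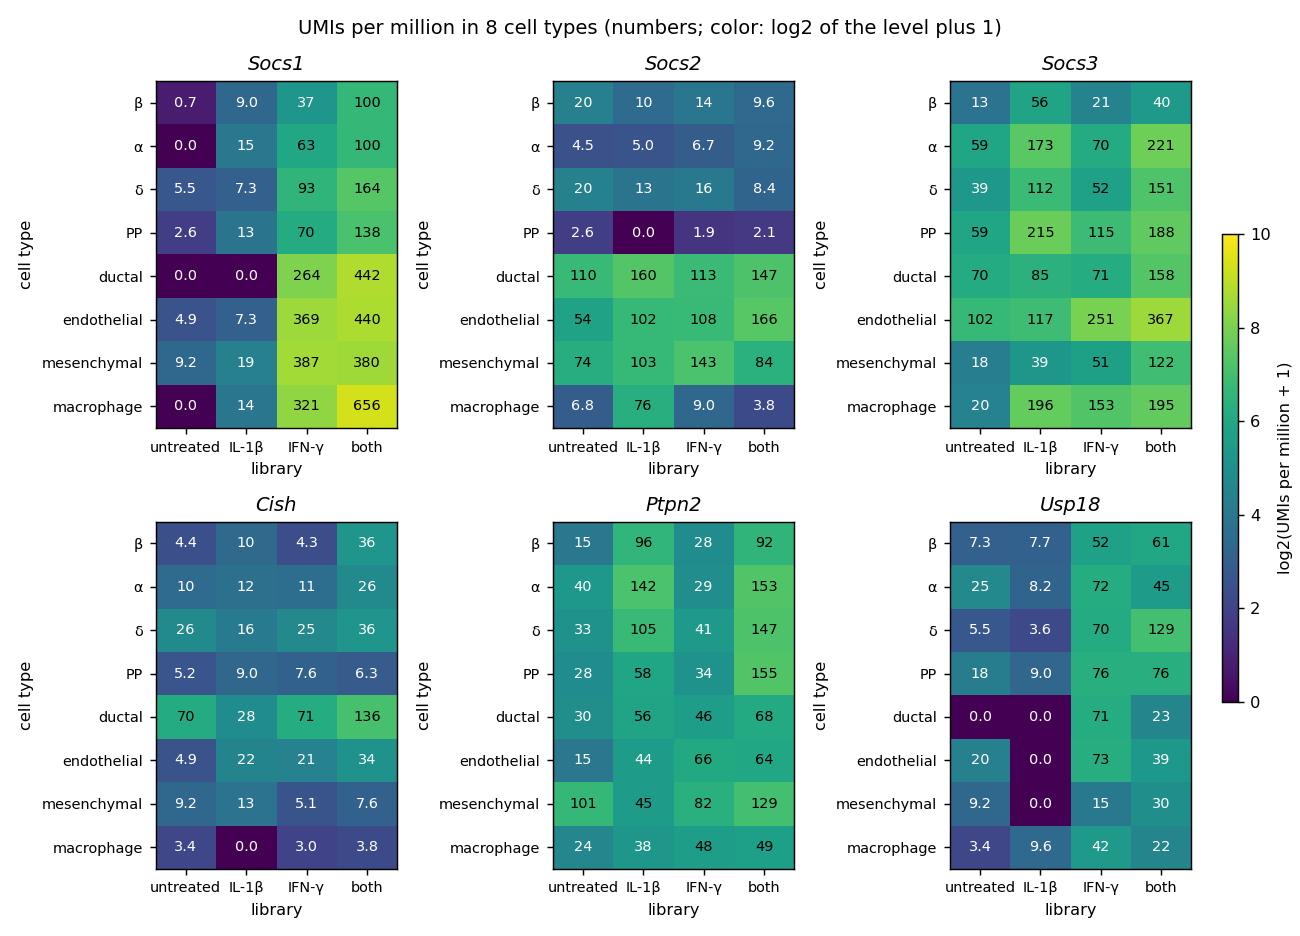
Each panel gives the CPM of 1 gene in 8 cell types (down) and 4 libraries (across), as a number and as a color on a log2 scale after adding 1. The 4 non-endocrine types at the bottom hold 11 to 45 cells per library. *Socs1* is highest in these with IFN-γ or both, *Cish* in ductal-like cells, and *Socs2* is nearly absent from PP-cells.

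Within β-cells, the inhibitors were detected in separate as well as shared cells. Of thinned β-cells, 20.2% (17.9 to 22.7) had a UMI of at least 1 inhibitor untreated, 51.1% after IL-1β, 45.6% after IFN-γ and 66.2% (63.6 to 68.9) after both. At least 2 inhibitors were found in 1.31%, 11.2%, 10.4% and 28.1% (25.7 to 30.7), and no cell had all 6. In the combined library, cells with a *Cish* UMI had *Socs1* in 33.9% (26.9 to 41.5) of cases against 23.7% (21.2 to 26.4) of those without. *Ptpn2* was as frequent in cells with *Cish* as without, at 27.5% and 27.4%. Cells with *Usp18* held *Socs1* in 29.6% (23.7 to 35.9), those without in 24.1% (21.5 to 26.9).

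*Nos2*, the inducible nitric oxide synthase that the study followed, divides β-cells of a library. After both cytokines, 748 thinned β-cells had a *Nos2* UMI and 514 had none. *Socs1* was detected in 27.9% (24.8 to 31.3) and 21.0% (17.6 to 24.8) of these, respectively, and *Usp18* in 20.9% (18.0 to 23.9) and 14.4% (11.5 to 17.7). For *Socs2* the shares were 2.81% (1.75 to 4.26) with *Nos2* and 5.84% (3.97 to 8.23) without. The intervals of *Socs2*, *Socs3*, *Cish* and *Ptpn2* overlapped between these groups. The housekeeping gene *Actb*, measured in the same cells, was found in 96.3% (94.6 to 97.5) and 91.2% (88.5 to 93.5), and the median depth before thinning was 12762.5 and 11616 UMIs. The part of overall RNA content in the *Socs1* and *Usp18* differences was not tested. With IL-1β alone, *Ptpn2* was in 35.5% (29.5 to 41.7) of cells with *Nos2* and in 28.6% (25.6 to 31.7) of those without, and *Socs3* in 21.1% and 19.3%.

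**Figure D4:**
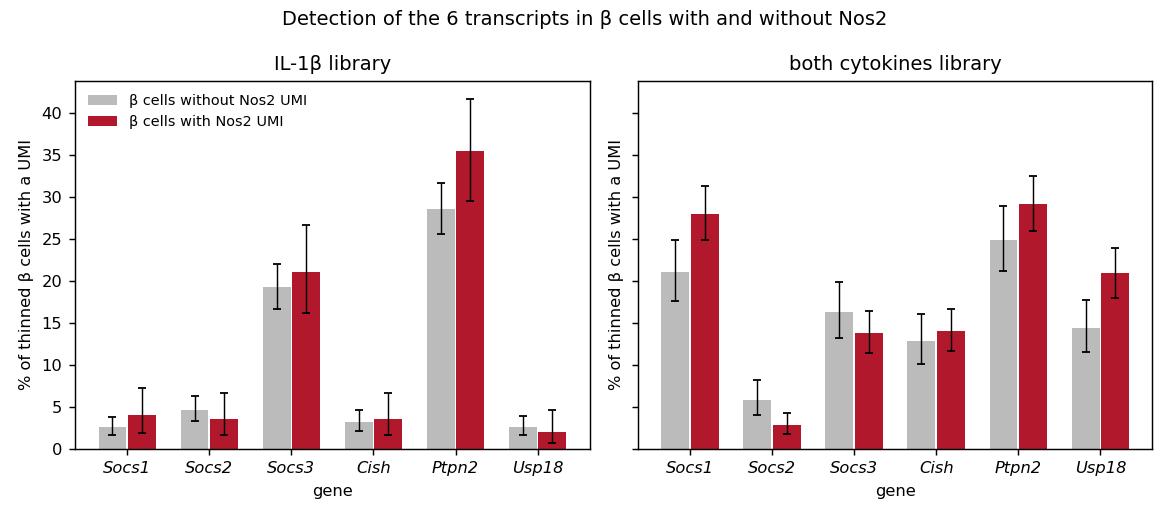
Bars show the percentage of β-cells, each thinned to 4000 UMIs, with a UMI of each inhibitor among cells with and without a *Nos2* UMI, in the IL-1β and the combined library. Error bars are exact binomial 95% intervals. In the combined library the intervals meet at most at their ends for *Socs1* and *Usp18*, which are more frequent with *Nos2*, and overlap for the other 4 genes.

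A small group of β-cells with high transcripts of the heat shock gene *Hspa1a*, at least 10 UMIs per 10000, differed in several inhibitors. After IL-1β, *Socs3* stood at 16.9 CPM (8.72 to 29.5) in these 109 cells against 58.8 (54.0 to 63.9) in the others, *Ptpn2* at 61.9 against 98.6 and *Socs1* at 1.41 (0.0356 to 7.83, from 1 UMI) against 9.60 (7.73 to 11.8), which overlap. With IFN-γ, *Socs1* had 1 UMI in 80 such cells, or 1.40 CPM (0.0355 to 7.82), against 38.8 (35.5 to 42.2) in the other 1247. *Usp18* stood at 28.1 (17.1 to 43.4) against 53.0 CPM (49.2 to 57.0). With both cytokines, *Socs1* was at 50.9 (37.9 to 66.9) against 104 CPM (98.7 to 109) and *Usp18* at 22.0 (13.8 to 33.2) against 63.9. *Cish*, at 35.9 and 36.4 CPM, and *Socs3*, at 51.9 (38.7 to 68.0) and 39.2 (36.1 to 42.5), had overlapping intervals there. *Socs2* was higher in the *Hspa1a* cells of each treated library, with both cytokines at 21.0 CPM (13.0 to 32.0) against 8.79 (7.35 to 10.4). In the untreated library it was lower in the 20 *Hspa1a* cells, from 1 UMI. The level there was 4.29 CPM (0.109 to 23.9) against 19.8 (17.9 to 21.9), which overlap. Leaving the *Hspa1a* cells out of all libraries put the β-cell ratio of *Socs1* with IL-1β at 14.7.

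Markers of other cells were looked for in the pooled β-cells. The 11 macrophage markers summed to 74.1 CPM untreated, 51.2 after IL-1β, 48.3 after IFN-γ and 147 after both, of which *C1qa* gave 69.3, 35.8, 39.9 and 135. The defining marker *Adgre1* had no UMI in any β-cell, and *C1qb*, which stood at 4749 CPM in macrophage-like cells, was at 0.281. The 7 acinar markers summed to 93.8, 14.3, 135 and 309.7 CPM, led by the digestive enzyme gene *Ctrb1* at 41.6, 6.68, 72.9 and 160.4. The 7 ductal markers lay between 219.7 and 260.4 CPM, most of it *Krt7*. The 9 endothelial markers summed to at most 5.48 CPM, the 10 mesenchymal ones to at most 4.03, the 5 lymphocyte ones to at most 4.49 and the 3 Schwann cell ones to at most 8.26. The macrophage and acinar sums were highest in the combined library, where *Socs1* and *Cish* were highest too, and their part in those levels was not tested. *Cish* had at most 1 UMI per library in macrophage-like cells, whereas *Socs1* stood at 656 CPM in those of the combined library. Acinar-like cells were too few to compare, with 2 *Cish* UMIs in 12 cells of the combined library, or 47.2 CPM (5.71 to 170.4). In α-cells the ductal sum was at 2478, 9143, 3358 and 4541 CPM, of which *Spp1* gave 2311, 8961, 3201 and 4331, and was highest after IL-1β, where *Socs3* and *Ptpn2* were high too. In δ-cells the macrophage sum was at 102, 31.6, 68.7 and 96.7 CPM, mostly *C1qa*. The ductal sum in δ-cells was at 322, 558, 267 and 313 CPM. It was highest after IL-1β, with *Spp1* at 299, where *Socs3* and *Ptpn2* were high too. The part of these in the α- and δ-cell levels was not tested.

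The other genes of these pathways, taken from fixed lists, place the inhibitors among their targets and partners in β-cells. Of 12 receptor genes, 10 passed the minimum in each comparison. At least 2-fold higher were 4 after IL-1β, 1 after IFN-γ and 4 after both, and at least 2-fold lower 1, 0 and 4. Over all genes, 16.8%, 4.17% and 10.9% were higher and 3.62%, 0.141% and 7.38% lower in the same comparisons, and these shares are the background of the counts that follow. *Ifngr2*, the signaling chain of the IFN-γ receptor, went from 5.38 CPM untreated to 58.6 after IL-1β, 5.27 after IFN-γ and 51.1 after both, a ratio of 9.49 (7.76 to 11.7) for the last. *Il6st*, which encodes gp130, was at 18.7, 60.2, 20.7 and 48.1 CPM. The prolactin receptor gene *Prlr* was lower where IL-1β was present, at 137, 56.7, 154 and 41.3 CPM, and the growth hormone receptor gene *Ghr* was at 123, 101, 168 and 71.0.

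Of the 4 Janus kinase genes, 2 were at least 2-fold higher with both cytokines, led by *Jak2* at 12.8, 46.9, 29.6 and 61.6 CPM. Of 7 STAT genes 6 passed, with 4, 2 and 3 of them at least 2-fold higher after IL-1β, IFN-γ and both. *Stat3* was at 148, 333, 215 and 456 CPM, while *Stat5a* and *Stat5b*, the transducers upstream of *Cish* and *Socs2*, were within 2-fold in every comparison (*Stat5a* at 8.12, 6.87, 9.51 and 8.23 CPM). Only 1 of 8 ligand genes passed the minimum in β-cells, *Il1b*, at 6.33, 18.5, 20.3 and 28.6 CPM. *Lif* was at 0.0498 CPM untreated and 5.53 with both, *Ifng* had no UMI, and *Il6* was found in mesenchymal-like cells, at 18.4, 3054, 428 and 3404 CPM, and in endothelial-like cells, at 0, 132, 6.96 and 1125.

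The machinery that SOCS proteins use lay near the median of all genes, while other negative regulators were mixed. *Socs4*, *Socs5*, *Socs6* and *Socs7* held 1 gene at least 2-fold higher with IL-1β (*Socs6*, at 43.4 against 15.2 CPM) and none with IFN-γ or both, at median ratios of 1.51, 1.36 and 1.36. None of the 4 ligase partners (*Elob*, *Eloc*, *Cul5* and *Rnf7*) and none of the 4 PIAS genes, which encode inhibitors of activated STATs, was 2-fold changed in β-cells. Of 3 other phosphatases, *Ptpn1*, the closest relative of *Ptpn2*, was at 63.5, 212, 89.3 and 253 CPM, while *Ptpn6* and *Ptpn11* stayed within 2-fold. In the ISG15 system, which USP18 opposes, all 4 genes were at least 2-fold higher with IFN-γ and with both, at median ratios of 13.8 and 18.4, and with IL-1β all 3 that passed the minimum were, at a median of 3.99. *Isg15* itself was at 0.748, 2.75, 25.9 and 122 CPM. Of the 7 inhibitors of the IL-1 pathway, 4 passed the minimum with IL-1β and with both, and 2 of them, *Tnfaip3* and *Nfkbia*, were at least 2-fold higher in each. *Tnfaip3*, which encodes A20, was at 1.25, 77.9, 4.16 and 116 CPM. Among genes that respond to handling, 7 of 8 immediate early genes passed, with 2, 2 and 4 at least 2-fold higher, beside 16.8%, 4.17% and 10.9% of all genes, and of the 4 heat shock genes 4, 3 and 4 were.

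**Figure D5:**
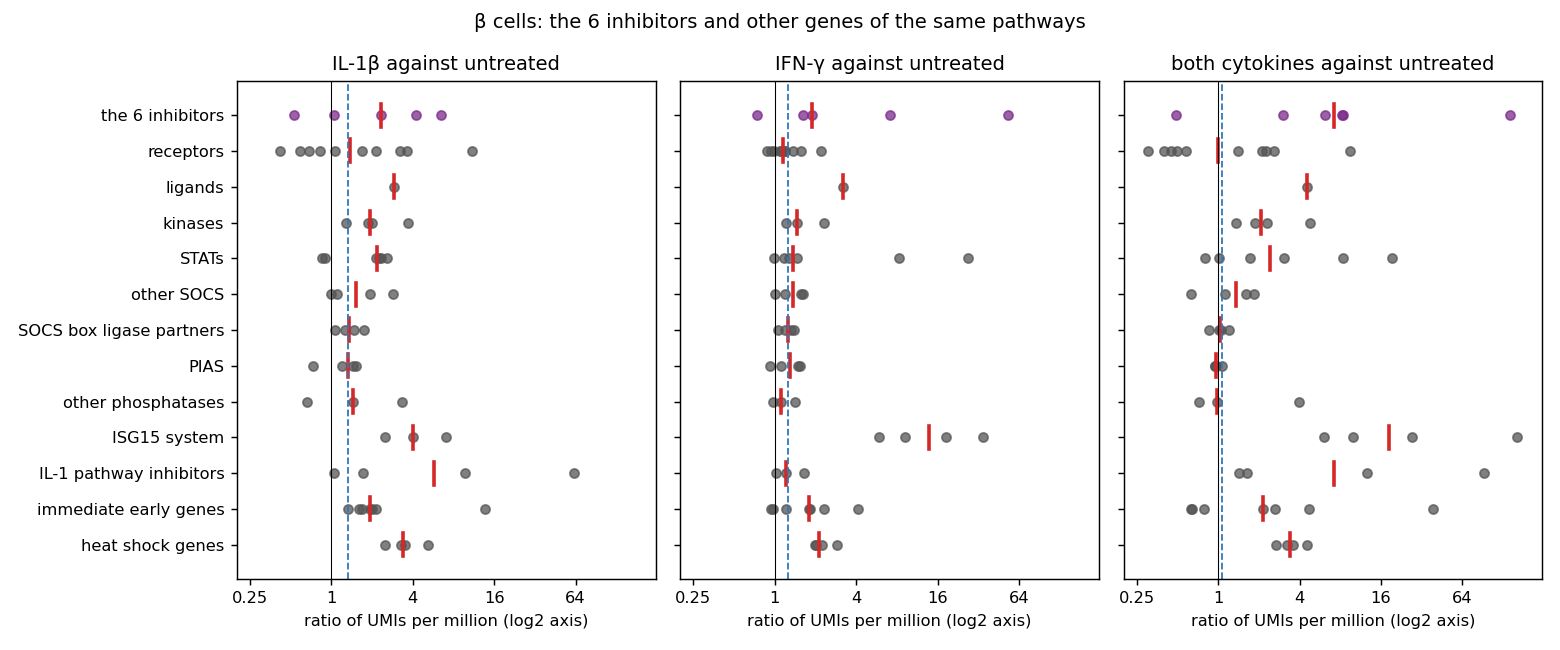
Points show the ratio of CPM to untreated β-cells (log2 axis) for each gene that passed a mean of 5 CPM, by list, red bars the list median, and the dashed line the median of all genes. With both cytokines the 6 inhibitors have a median of 7.24, the ISG15 system of 18.4 and the STAT genes of 2.41, while the SOCS box ligase partners and PIAS genes lie near 1.

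The genes whose levels followed each inhibitor most closely over the 12 profiles (β-, α- and δ-cells in 4 libraries) were found by Pearson correlation of log2(CPM + 1) among 8149 genes with a mean of at least 10 CPM. These profiles share libraries, so the values are descriptive. *Socs1* was followed by *Vwa5a* (r = 0.970), *Ttc9c* (0.960) and the guanylate-binding protein gene *Gbp8* (0.958). *Usp18* was followed by *Apol9a* (0.964), *Cd274*, which encodes PD-L1 (0.960), and the immunity-related GTPase gene *Igtp* (0.953). *Cd274* stood at 4.59 CPM in untreated β-cells, 13.0 after IL-1β, 243 after IFN-γ and 255 after both. *Ptpn2* was followed by *Mast4* (0.978), *Tuba1c* (0.973) and *Marcks* (0.970), and *Socs3* by *Camk2d* (0.963), *Tax1bp3* (0.959) and *Muc1* (0.955). The likeness was weaker for *Cish*, with the complement gene *C1ra* first (0.900, then *Tagln2* at 0.887 and *Rit1* at 0.869), and for *Socs2*, with *Mlxipl*, the gene of a glucose-responsive transcription factor, first (0.886, then *Jakmip1* at 0.884 and *Tspan5* at 0.863). *C1ra* in β-cells was at 0.598, 13.1, 1.87 and 43.5 CPM, and *Mlxipl* was at 143, 27.4, 97.0 and 37.9.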

How the data were processed

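The authors deposited raw UMI counts per gene and cell barcode for each of the 4 libraries, made with Cell Ranger against mm10 per the submitters' processing notes; the matrix headers name software version 3.0.0, and no source used here names the annotation. The kit counts the 3′ ends of transcripts, so levels do not scale with gene length. All counts were used as deposited. The labels and the study name different versions of the library kit.

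Barcodes with between 200 and 4000 genes and no more than 12% of mitochondrial UMIs were used. Endocrine types were set by the leading hormone (at least 2% of UMIs and at least 80% of hormone UMIs; pancreatic polypeptide was not counted where somatostatin led). The limits first written, 5% and 70%, were replaced after the hormone shares of the cells were seen and before levels of the inhibitors were computed, and serve as an alternative chosen after seeing the data. Other cells took the type with the most detected markers, at least 3, and endocrine cells with 4 or more endothelial, macrophage or mesenchymal markers were set aside. Over all libraries, 50 cells left without a type had a leading hormone just under the first limit (1% to 2% of UMIs). Cells given a non-endocrine type were not included in that count. A further 64 cells had a purity just under the second limit (75% to 80%). No doublet caller was applied; the upper gene limit and an alternative without the deepest 5% of cells stand in its place.

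Levels are the UMIs of all cells of a type and library pooled and scaled to 1000000 (CPM), with exact Poisson intervals. Ratios carry exact conditional binomial intervals and shares of cells exact Clopper-Pearson intervals. A gene was counted as higher or lower at 2-fold, among genes with a mean of at least 5 CPM in both libraries together. A gene that was low in 1 library could therefore pass through its level in the other. A level of 0 was given a floor of 3 UMIs per library. Shares of cells were compared after thinning each cell to 4000 UMIs (seed 1), which left 1147, 1118, 1256 and 1262 β-cells. With 1 library per condition no test was run, and the mice were pooled, so the spread between animals is unknown.

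Named genes were the 6 inhibitors, genes of the pathway lists, and for each inhibitor the 3 genes most like it. The members and lists were chosen with earlier results of these data known. On simulated counts with 200 changed genes among 8873, the calculation recovered 200 of 200 in each treated comparison of β-cells. Intervals held the true ratio for 94.7% (IL-1β), 95.9% (IFN-γ) and 95.5% (both) of genes. Recovery of genes with ratios close to 2-fold was not tested, nor was spread between cells or libraries. Calculations ran in Python 3.11.15 with pandas 2.3.3, scipy 1.17.1 and numpy 2.4.6. Values of some genes of the fixed lists are not reported here.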

Additional observations from a re-analysis of the deposited data

Results flagged for a closer look

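The barcodes that the filter removed for more than 12% mitochondrial UMIs, which enter no comparison except those of up to 20% in 1 alternative, also carried the inhibitors after treatment. The combined library had 447 such barcodes (median 1135 UMIs), in which *Socs1* stood at 86.8 CPM (68.0 to 109), against 0.633 (0.0767 to 2.29) in the 1120 of the untreated library. *Usp18* was at 52.3 CPM (38.0 to 70.2), *Socs3* at 61.8, *Ptpn2* at 42.8 and *Cish* at 25.0, each above its interval in the untreated library. With IFN-γ alone *Socs1* was at 28.6 CPM and *Usp18* at 36.7 in such barcodes, and with IL-1β alone *Ptpn2* was at 62.2 and *Socs3* at 40.2. *Socs2* did not differ beyond its interval between the combined (26.2, 16.4 to 39.6) and untreated (21.8, 17.0 to 27.6) libraries. What these barcodes hold was not tested.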

How the results depend on the processing

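Over 10 alternatives for 51 ratios of the inhibitors to untreated cells, 484 of 510 values stayed within the counting interval of the reported ratio, 26 did not, and 0 of the ratios past 2-fold turned direction. The number of inhibitors counted as higher in β-cells with IFN-γ was 2, and 4 at a threshold of 1.5-fold, where *Socs3* and *Ptpn2* joined, and 3 after thinning, where *Ptpn2* joined; at that threshold 19.7% of all genes were counted too. Without an upper gene limit, *Socs1* in β-cells with both cytokines was at 106 times untreated, and *Usp18* in δ-cells at 4.63 times with IFN-γ and 8.52 times with both. With hormone genes left out of the totals, the IL-1β ratio in β-cells was 4.76 for *Ptpn2*, 3.13 for *Socs3* and 1.70 for *Cish*, below 2-fold. After thinning, *Socs2* in β-cells was at 0.693 times untreated with IL-1β, at 0.636 with both and equal to untreated at 3 digits with IFN-γ, so that it was no longer 2-fold lower with both, and it was not either with a mitochondrial limit of 20% (0.512), equal weight per cell (0.514) or the deepest 5% of cells left out (0.503). *Cish* after thinning in α-cells was at 4.10, 3.54 and 6.23 times untreated and in δ-cells at 2.19, 3.34 and 3.45, against 1 and 2 untreated cells with a UMI. With the limits on hormones first written, chosen as an alternative after seeing the data, *Socs1* in δ-cells was at 3.33 times untreated after IL-1β, 29.7 after IFN-γ and 65.4 after both, against 1.31, 16.8 and 29.6, and *Socs2* in δ-cells with both at 0.552, no longer 2-fold lower. The causes were not tested. Ratios of *Socs1* in α-cells could not be computed, with 0 UMIs untreated. Few cells limit the precision in untreated α- and δ-cells (89 and 64), PP-cells and the non-endocrine types. No paired analysis was possible because each condition has 1 library.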

Other observations

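The barcodes with more than 4000 detected genes were left out of every comparison except the alternative without that limit. They mix cell types and are set here beside all kept cells of the same library. *Socs1* stood there at 1.67 CPM untreated, 9.66 with IL-1β, 108 with IFN-γ and 194 (181 to 207) with both, and *Socs2* at 25.6, 41.9, 29.9 and 34.6 CPM. *Socs2* in these barcodes was thus not lower in the treated libraries. They number 843 in the untreated library, with a median of 27749 UMIs, and 146, 345 and 222 in the others. They were not divided by cell type, and the part of the cell mix in these levels was not tested.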
